A study of Bos taurus with 21 samples.

Results

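The 10 genes described here mark the cells that line blood vessels or code for the growth factors that act on them. *PECAM1*, *CDH5* and *VWF* are endothelial markers, *KDR*, *FLT1* and *TEK* are receptors on endothelial cells, and *VEGFA*, *VEGFB*, *ANGPT1* and *ANGPT2* are ligands of those receptors. They were measured by every non-control probe whose RefSeq accession belongs to 1 of these genes in the cattle annotation of assembly ARS-UCD2.0, which gave 30 probes of 10 genes among the 43653 probes and 12538 named genes of the array. The genes were chosen by what they are, though with earlier results of these data known.

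RNA came from whole muscle of foetuses of 2 beef breeds, the muscular Blonde d'Aquitaine (BA) and the Charolais (CH), and 1 array was hybridized per foetus. Gestational stage is given in days post conception (dpc). At 110 dpc there were 3 BA and 2 CH arrays, at 180 dpc 2 and 3, at 210 dpc 3 and 3, and at 260 dpc 2 and 3, so that 21 arrays form 8 groups. No treatment was given. Sexes were mixed unevenly: 2 of the 3 BA foetuses at 110 dpc and 2 of the 3 CH foetuses at 260 dpc were male, whereas CH at 110 dpc and BA at 180 and 260 dpc held females alone. The foetuses of each breed descended from at most 2 sires, some BA animals carry a variant *MSTN* allele, and the genotype of each foetus is not given in the sources used here. The study text places the samples in *m. Semitendinosus* and the sample labels in *Longissimus thoracis*.

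In textbook biology, VEGFA made by tissue cells binds KDR on endothelial cells and drives their division and sprouting, while FLT1 binds the same ligand tightly and limits it. VEGFB binds FLT1 and not KDR, and is known for its high level in muscle and heart. ANGPT1 from the cells around a vessel activates TEK (also called TIE2) and quiets the endothelium, and ANGPT2, released by endothelial cells of vessels under remodelling, competes with it.

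Every level below is a normalized log2 intensity of 1 probe. It is the log2 of the deposited intensity, less the 75th percentile of its array, plus a constant that puts the median probe of a typical array at 0. Levels of different probes cannot be set against each other. A difference of 1 is a doubling of intensity. Each gene is described by its brightest probe over the 21 arrays, called its lead probe, and its further probes are given beside it. Differences were tested with limma over all 21 arrays, 1 mean being fitted per group of the 8. The threshold was a p of 0.05 after Benjamini-Hochberg adjustment over the 20132 probes whose mean lay above 0 in 7 or more groups. Stage differences are the mean of the differences within BA and within CH. The lead probes of *VEGFA* and *FLT1* did not meet that level filter, so 8 of the 10 genes were tested. The adjusted p given for these 2 genes, and for further probes that did not meet the filter, is over all 43653 probes. Among the latter are the dimmer probes of *KDR* and *CDH5*. The probes well above background numbered 29017 to 34501 per array. The lead probes of 9 of the 10 genes were so on all 21 arrays, and that of *FLT1* on 19.

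The tissue was checked by its markers. All 11 measured skeletal muscle fibre markers and 23 of 24 other endothelial genes were well above background on every array, whereas of the 10 erythroid genes this held for 5, and *KLF1* was above background on none. In RNA of whole muscle, fewer cells of a type and less RNA per cell cannot be told apart.

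*PECAM1*, *CDH5*, *KDR*, *TEK* and *VEGFA* rose between 110 and 180 dpc, and the genes then parted. By 260 dpc *KDR* and *ANGPT2* had fallen below their level at 110 dpc, by 0.63 and by 0.96, while *PECAM1*, *VWF*, *TEK*, *VEGFB* and *ANGPT1* were higher by 0.28 to 0.55. None of these rises passed on the authors' unscaled table, where *VEGFB* was at −0.11 and the others were between 0.035 and 0.15. *VEGFB* was also at −0.045 with quantile normalization, and the second *PECAM1* probe did not pass. *VEGFA* rose at the first and the last step, the latter not on the unscaled table of the authors (0.37, adjusted p = 0.31), and was 5.53-fold higher at 260 than at 110 dpc. No tested lead probe of the 8 differed between BA and CH past the threshold at any stage or on average, although *VWF* was lower in BA at each stage.

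**Figure D1:**
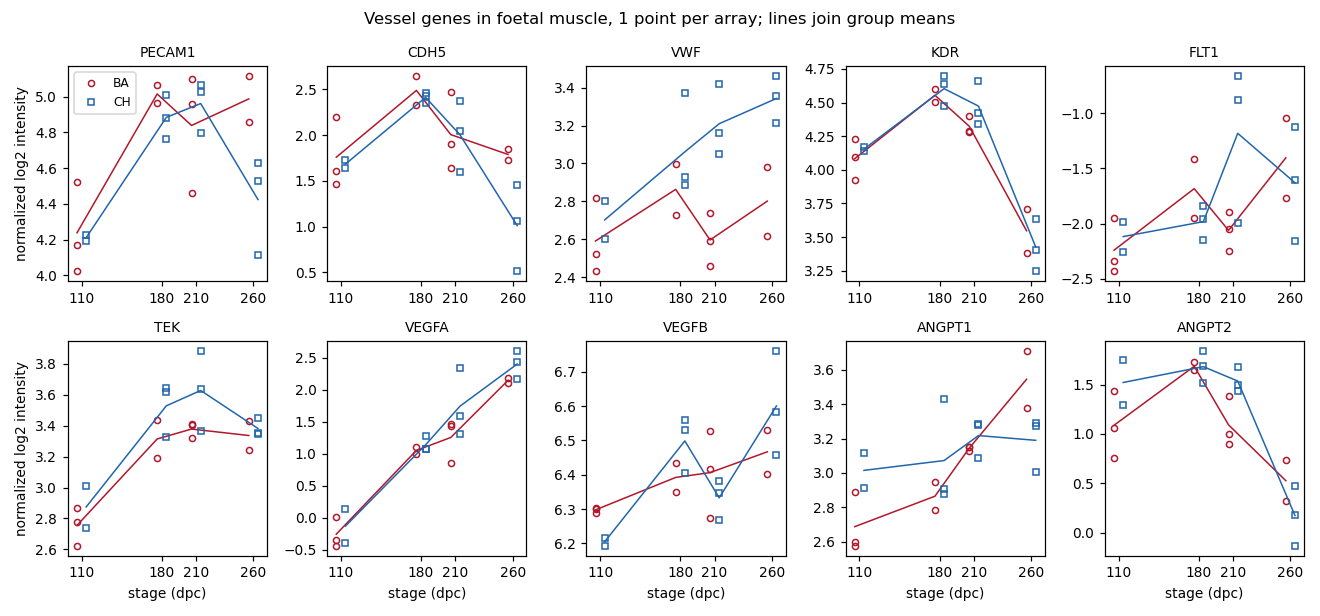
Normalized log2 intensity of the lead probe of each gene (vertical axes, a scale of its own in each panel) against stage in dpc, with 1 point per array, circles for BA, squares for CH, and lines through the group means of 2 or 3 arrays. *VEGFA* rises from between −0.44 and 0.13 at 110 dpc to between 2.10 and 2.60 at 260 dpc, and *KDR* and *ANGPT2* are lowest at 260 dpc in both breeds.

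*PECAM1* codes for an adhesion protein of endothelial cell contacts that platelets and leukocytes also carry. The BA arrays gave 4.02, 4.17 and 4.52 at 110 dpc, 4.96 and 5.07 at 180 dpc, 4.96, 5.10 and 4.46 at 210 dpc, and 4.86 and 5.11 at 260 dpc. The CH arrays gave 4.23 and 4.19 at 110 dpc, 4.76, 4.88 and 5.01 at 180 dpc, 5.02, 5.06 and 4.79 at 210 dpc, and 4.53, 4.63 and 4.12 at 260 dpc. Every array at 180 dpc lay above every array at 110 dpc, and the CH arrays at 260 dpc lay below every array at 180 dpc, 1 of them within the range of 110 dpc. The difference from 110 to 180 dpc was 0.72 (SE 0.13, adjusted p = 0.00084) and that from 110 to 260 dpc was 0.48 (SE 0.13, adjusted p = 0.0049). The second probe (A_73_104687) rose by 0.84 to 180 dpc (adjusted p = 8.3e-06), but its difference from 110 to 260 dpc was 0.046 (adjusted p = 0.69), and it fell by 0.59 from 210 to 260 dpc (adjusted p = 6.3e-05). The later call for *PECAM1* therefore rests on the lead probe, and with slide as a block its adjusted p was 0.096.

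*CDH5* codes for VE-cadherin, which joins endothelial cells to each other. Its BA levels were 1.47, 1.61 and 2.20 at 110 dpc, 2.33 and 2.64 at 180 dpc, 1.90, 2.47 and 1.65 at 210 dpc, and 1.73 and 1.85 at 260 dpc. Its CH levels were 1.73 and 1.64 at 110 dpc, 2.46, 2.35 and 2.43 at 180 dpc, 2.37, 2.05 and 1.59 at 210 dpc, and 1.06, 1.46 and 0.51 at 260 dpc. The 5 arrays at 180 dpc were above the 5 at 110 dpc, and the 3 CH arrays at 260 dpc were the lowest of all 21. The rise to 180 dpc was 0.73 (SE 0.20, adjusted p = 0.013), with an adjusted p of 0.058 without BA replicate 2 at 180 dpc. From 210 to 260 dpc *CDH5* fell by 0.61 (SE 0.19, adjusted p = 0.015), with −0.58 (adjusted p = 0.052) without BA replicate 1 at 260 dpc and −0.38 (adjusted p = 0.12) with slide as a block. A second probe (A_73_P045871) rose by 0.92 (adjusted p = 2.6e-05) and then fell by 0.51 (adjusted p = 0.0014) over the same intervals. Between 110 and 260 dpc the lead and this probe differed by −0.32 and 0.19 and a dimmer probe (A_73_P168157) by −0.31, and none of the 3 passed.

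*VWF* codes for von Willebrand factor, the clotting protein that endothelial cells and megakaryocytes store. In BA its level was 2.43, 2.82 and 2.52 at 110 dpc, 2.73 and 3.00 at 180 dpc, 2.74, 2.59 and 2.46 at 210 dpc, and 2.62 and 2.98 at 260 dpc. In CH it was 2.80 and 2.60 at 110 dpc, 3.37, 2.89 and 2.93 at 180 dpc, 3.42, 3.05 and 3.16 at 210 dpc, and 3.21, 3.35 and 3.46 at 260 dpc. The stages overlapped in BA, and in CH the arrays from 180 dpc on lay above both arrays at 110 dpc. The difference from 110 to 260 dpc was 0.43 (SE 0.12, adjusted p = 0.0059), and no step between neighbouring stages passed for this probe. Of the 7 *VWF* probes, 3 were well above background on all 21 arrays and 4 on 0 to 6 arrays. The other 2 bright probes rose by 0.71 (A_73_P138521, adjusted p = 8.9e-06) and 0.70 (A_73_P450736, adjusted p = 7.2e-05) between 110 and 260 dpc.

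*KDR*, the main signalling receptor for VEGFA, rose and then fell. The BA arrays gave 3.93, 4.09 and 4.23 at 110 dpc, 4.60 and 4.51 at 180 dpc, 4.28, 4.40 and 4.29 at 210 dpc, and 3.71 and 3.38 at 260 dpc. The CH arrays gave 4.17 and 4.14 at 110 dpc, 4.70, 4.64 and 4.48 at 180 dpc, 4.66, 4.42 and 4.34 at 210 dpc, and 3.63, 3.40 and 3.25 at 260 dpc. The 5 arrays at 180 dpc were above all at 110 dpc, and the 5 arrays at 260 dpc were below those of every other stage. The difference was 0.46 from 110 to 180 dpc (SE 0.10, adjusted p = 0.0024), −0.18 from 180 to 210 dpc (adjusted p = 0.24) and −0.91 from 210 to 260 dpc (SE 0.09, adjusted p = 1.1e-06). From 110 to 260 dpc it fell by 0.63 (SE 0.10, adjusted p = 2.4e-05). The second, dimmer probe (A_73_P255521) fell by 1.20 from 110 to 260 dpc (adjusted p = 0.00013), but it did not show the early rise, at −0.16 from 110 to 180 dpc (adjusted p = 0.69).

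*FLT1*, the other VEGFA receptor, was dim. Its BA levels were −2.43, −2.34 and −1.95 at 110 dpc, −1.95 and −1.42 at 180 dpc, −1.89, −2.25 and −2.05 at 210 dpc, and −1.04 and −1.77 at 260 dpc. Its CH levels were −1.98 and −2.25 at 110 dpc, −2.15, −1.84 and −1.96 at 180 dpc, −0.89, −0.67 and −2.00 at 210 dpc, and −1.13, −2.16 and −1.61 at 260 dpc. All stages overlapped, and 1 CH array at 210 dpc and 1 at 260 dpc were not well above background. The difference from 110 to 260 dpc was 0.66 (SE 0.26, adjusted p = 0.047). Leaving out single arrays kept the adjusted p under 0.05 in 6 of 21 cases, with a highest value of 0.2 without BA replicate 1 at 260 dpc. The other probe, well above background on 12 arrays, differed by 1.16 (adjusted p = 0.018).

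*TEK*, the receptor of the angiopoietins, rose early and stayed up. In BA its level was 2.87, 2.62 and 2.78 at 110 dpc, 3.44 and 3.19 at 180 dpc, 3.40, 3.32 and 3.41 at 210 dpc, and 3.43 and 3.24 at 260 dpc. In CH it was 2.74 and 3.01 at 110 dpc, 3.64, 3.62 and 3.33 at 180 dpc, 3.89, 3.37 and 3.63 at 210 dpc, and 3.45, 3.35 and 3.35 at 260 dpc. All 16 later arrays were above the 5 arrays at 110 dpc. The difference from 110 dpc was 0.61 at 180 dpc (SE 0.10, adjusted p = 0.00043) and 0.55 at 260 dpc (SE 0.10, adjusted p = 0.00021), and the later steps were 0.082 and −0.14, neither of which passed. *TEK* had this 1 probe.

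*VEGFA*, the main growth factor for vessels, is a gene whose transcript rises in cells short of oxygen. The BA arrays gave −0.44, 0.011 and −0.35 at 110 dpc, 1.10 and 0.99 at 180 dpc, 0.86, 1.46 and 1.44 at 210 dpc, and 2.19 and 2.10 at 260 dpc. The CH arrays gave 0.13 and −0.40 at 110 dpc, 1.06, 1.27 and 1.07 at 180 dpc, 2.34, 1.58 and 1.30 at 210 dpc, and 2.43, 2.17 and 2.60 at 260 dpc. The ranges at 110, 180 and 260 dpc did not overlap, and only CH replicate 1 at 210 dpc reached the range of 260 dpc. The difference was 1.29 from 110 to 180 dpc (SE 0.19, adjusted p = 0.00032), 0.40 from 180 to 210 dpc (adjusted p = 0.29) and 0.78 from 210 to 260 dpc (SE 0.18, adjusted p = 0.0052). From 110 to 260 dpc *VEGFA* rose by 2.47 (SE 0.19, adjusted p = 4.2e-08). Its other 2 probes rose by 2.36 and 2.31 over that interval. The 3 probes had group means below 0 at 110 dpc in both breeds, which kept them under the level filter, and all were well above background on all 21 arrays.

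*VEGFB*, the family member that is abundant in muscle, changed little in size. Its BA levels were 6.29, 6.30 and 6.30 at 110 dpc, 6.35 and 6.44 at 180 dpc, 6.42, 6.27 and 6.53 at 210 dpc, and 6.40 and 6.53 at 260 dpc. Its CH levels were 6.19 and 6.22 at 110 dpc, 6.56, 6.53 and 6.41 at 180 dpc, 6.27, 6.38 and 6.35 at 210 dpc, and 6.46, 6.76 and 6.58 at 260 dpc. The arrays at 180 and 260 dpc were above all 5 at 110 dpc. The difference from 110 to 260 dpc was 0.28 (SE 0.08, adjusted p = 0.0034), or 1.22-fold, with no single step past the threshold. With quantile normalization, which gives all arrays the same distribution, this difference was −0.045 (adjusted p = 0.53), so the rise of *VEGFB* holds on some scales and not on others. Its 3 further probes differed by 0.21 to 0.28, and 2 of them passed.

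*ANGPT1* and *ANGPT2*, the ligands with opposed actions on TEK, went opposite ways from 110 to 260 dpc in the mean of the breeds. In CH alone the rise of *ANGPT1* did not pass, and on the authors' unscaled table its mean rise was 0.13 (adjusted p = 0.63). For *ANGPT1* the level in BA was 2.58, 2.60 and 2.89 at 110 dpc, 2.78 and 2.95 at 180 dpc, 3.13, 3.15 and 3.15 at 210 dpc, and 3.38 and 3.71 at 260 dpc. In CH it was 3.12 and 2.91 at 110 dpc, 3.43, 2.88 and 2.91 at 180 dpc, 3.09, 3.29 and 3.28 at 210 dpc, and 3.27, 3.29 and 3.01 at 260 dpc. In BA both arrays at 260 dpc were above all earlier BA arrays, and in CH the stages overlapped. The difference from 110 to 260 dpc was 0.52 (SE 0.12, adjusted p = 0.00082), no single step passed, and the other 2 probes rose by 0.78 and 0.55.

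For *ANGPT2* the level in BA was 0.76, 1.06 and 1.44 at 110 dpc, 1.64 and 1.73 at 180 dpc, 0.90, 1.38 and 1.00 at 210 dpc, and 0.32 and 0.73 at 260 dpc. The CH arrays gave 1.75 and 1.29 at 110 dpc, 1.84, 1.68 and 1.52 at 180 dpc, 1.49, 1.68 and 1.44 at 210 dpc, and 0.18, 0.47 and −0.14 at 260 dpc. The 5 arrays at 260 dpc were below the 16 earlier ones. *ANGPT2* fell by 0.96 from 110 to 260 dpc (SE 0.15, adjusted p = 3.4e-05), and the step from 210 to 260 dpc was −0.96 (SE 0.15, adjusted p = 5.1e-05). The steps before it were 0.38 (adjusted p = 0.083) and −0.37 (adjusted p = 0.12). Its other 2 probes fell by 0.52 and 0.90 between 110 and 260 dpc.

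**Figure D2:**
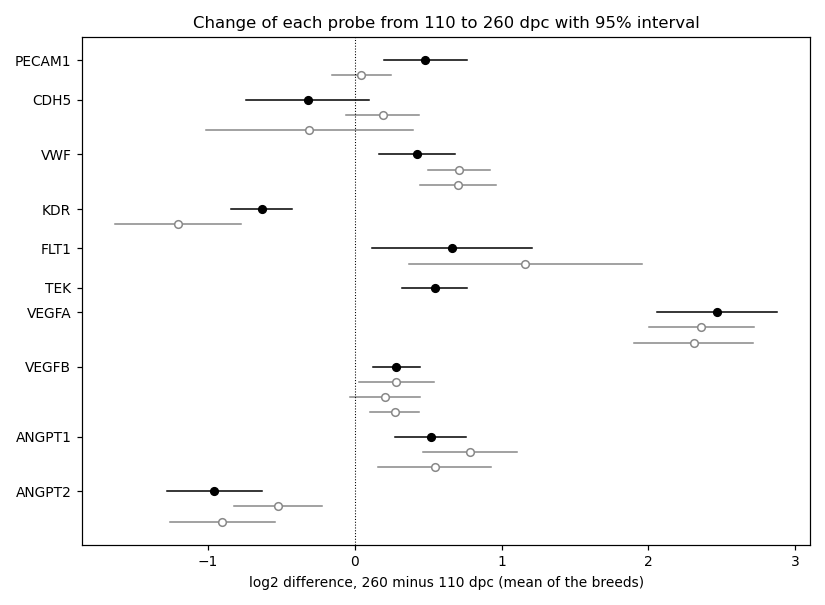
Log2 difference between 260 and 110 dpc, as the mean of both breeds (horizontal axis), for each probe that was well above background on 12 or more of 21 arrays, grouped by gene (vertical axis), with filled points for lead probes, open points for further probes and lines for 95% intervals. *VEGFA* lies above 2 by each of its 3 probes, *KDR* and *ANGPT2* lie below 0 by each of theirs, and the probes of *PECAM1* differ, at 0.48 and 0.046.

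Counted by lead probe over the 8 tested genes, 5 were higher and 2 were lower at 260 than at 110 dpc. Of the lead probes of all 7930 tested genes, 33.8% were higher and 31.5% were lower, so a call in this comparison was common. The median difference was 0.35 for the 8 genes and 0.034 for all genes. From 110 to 180 dpc 4 of the 8 were higher (*PECAM1*, *CDH5*, *KDR* and *TEK*) and 0 were lower, against 13.6% and 11.5% of all genes, and the median was 0.42 against −0.006. From 180 to 210 dpc 0 of the 8 passed in limma in either direction, against 4.85% higher and 4.98% lower of all genes, and 3 of the 10 lead probes had an unadjusted p under 0.05. Of all 20132 tested probes, 4986 had such a p in this comparison. From 210 to 260 dpc 0 were higher and 3 were lower (*CDH5*, *KDR* and *ANGPT2*), against 25.4% and 21.6%. On the authors' value table, whose values carry no scaling between arrays, *PECAM1*, *CDH5*, *KDR* and *TEK* differed by 0.75, 0.75, 0.48 and 0.63 from 110 to 180 dpc with adjusted p of 0.058 to 0.29, so that 0 passed. There the median of all tested probes was −0.355 from 110 to 260 dpc, and 0 of the 8 genes were higher and 3 lower (*CDH5*, *KDR* and *ANGPT2*). On that table *VEGFB* was at −0.11 and *PECAM1*, *VWF*, *TEK* and *ANGPT1* were between 0.035 and 0.15.

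Slides and scan days divided the arrays. Arrays of 110 and 260 dpc of the same breed never shared a slide, so that this difference could not be taken within slides. Within slides and breed, 4 pairs of arrays compared 180 with 110 dpc, and the later array was higher in 4 of 4 pairs for *PECAM1*, *CDH5*, *VWF*, *KDR*, *FLT1*, *TEK*, *VEGFA* and *VEGFB*. It was higher in 3 of 4 for *ANGPT2* and in 2 of 4 for *ANGPT1*. In the 3 pairs of 260 with 210 dpc, *PECAM1*, *CDH5*, *KDR* and *ANGPT2* were lower in all 3 and *VEGFA* was higher in all 3, by 1.03 to 1.33. On the 12 arrays of the scan day that held every group, *TEK*, *ANGPT1*, *KDR* and *ANGPT2* kept their calls from 110 to 260 dpc.

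The early rise was shared by the wider set of endothelial genes. Of 23 other endothelial genes tested, 21 were higher at 180 than at 110 dpc and 0 were lower, with a median of 0.69 against −0.006 for all genes. Of all tested genes 13.6% were higher and 11.5% lower. On the authors' unscaled table the median was 0.71 and 11 of the 23 passed. The exceptions, named after their values were seen, were the water channel *AQP1* at −0.32 (adjusted p = 0.22) and the transcription factor *SOX17* at −0.26 (adjusted p = 0.78). Then 14 of the 23 fell from 210 to 260 dpc and 0 rose, against 21.6% lower and 25.4% higher of all genes. With scaling by array medians instead, which moved the median of all probes to 0.117, 7 of them fell. From 110 to 260 dpc 10 were higher and 3 were lower, with a median of 0.28, which was −0.11 on the unscaled table, where 2 were higher and 3 lower. The shares of all genes on the main scale were 33.8% higher and 31.5% lower.

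Among these, *S1PR1*, the receptor for sphingosine-1-phosphate that steadies vessel walls, rose by 1.24 between 110 and 260 dpc (SE 0.11, adjusted p = 1.8e-08), and the caveolar protein gene *CAV1* rose by 0.83 (adjusted p = 2e-06). *PLVAP*, which codes for the diaphragm protein of permeable capillaries, fell by 1.23 (SE 0.11, adjusted p = 6.2e-08), and the apelin receptor gene *APLNR* fell by 0.59 (adjusted p = 0.0015). Like *KDR*, both *PLVAP* and *APLNR* first rose, by 0.43 and 0.58 to 180 dpc, and then fell by 1.21 and 0.98 between 210 and 260 dpc.

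**Figure D3:**
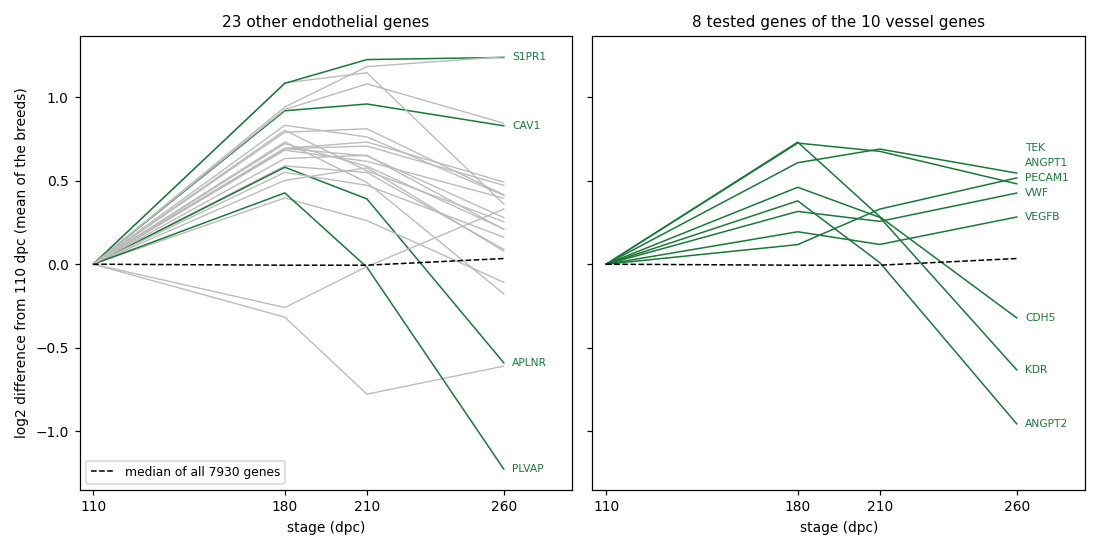
Log2 difference from 110 dpc (vertical axis, mean of both breeds, each line 1 lead probe) against stage in dpc, for the 23 other endothelial genes on the left and the 8 tested genes of the 10 on the right, with named genes in green, other genes in grey and the median of all 7930 tested genes as a dashed line. Of the 23 genes on the left 21 are higher at 180 dpc, and by 260 dpc they spread from −1.23 for *PLVAP* to 1.24 for *S1PR1* and *THBD*, whereas on the unscaled table their median at 260 dpc is −0.11.

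Of 7 tested genes on a list of the VEGF and angiopoietin pathways, 6 were higher at 180 than at 110 dpc, and 5 fell from 210 to 260 dpc. Of all tested genes 13.6% were higher at the first of these steps and 21.6% lower at the last. *TIE1* and *PTPRB* of this list were already counted among the other endothelial genes. The early count was 2 of the 7 on the unscaled table, where the median was 0.68 against 0.66, and the later count was 3 with normexp, quantile or median scaling. Over the whole interval 3 were higher and 1 lower (1 and 1 on the unscaled table), among them the pericyte-recruiting ligand *PDGFB* at 0.97 (SE 0.11, adjusted p = 4.2e-07) and the VEGF coreceptor *NRP1* at 0.78 (adjusted p = 1.5e-06). The FLT1 ligand *PGF*, placental growth factor, fell by 2.26 (SE 0.19, adjusted p = 2e-08), from a mean of 3.90 at 110 dpc to 3.66, 2.86 and 1.69 at the later stages. For the same interval, here and in the lists that follow, 33.8% of all tested genes were higher and 31.5% lower. Of 6 Notch genes of vessels, 2 were higher and 2 lower at 260 than at 110 dpc, which is near those shares, against 0 and 2 without scaling between arrays. The tip cell ligand *DLL4* rose by 0.74 (adjusted p = 0.00011) and the endothelial receptor *NOTCH4* by 0.39 (adjusted p = 0.017), whereas the Notch cofactor *RBPJ* fell by 0.93 (adjusted p = 1.3e-08) and the target *HES1* by 0.27 (adjusted p = 0.024). Of 10 hypoxia response genes, to which *VEGFA* is often added, 4 were higher and 1 lower, against 3 and 3 without scaling between arrays. *EGLN1*, a prolyl hydroxylase that senses oxygen, rose by 1.37 (adjusted p = 3.7e-07) and *BNIP3*, a mitochondrial target, by 0.97 (adjusted p = 3.7e-06), while the glucose transporter *SLC2A1* fell by 2.02 (adjusted p = 2e-09).

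Markers of other cells in the muscle moved over the same stages. Of all tested genes 33.8% were higher and 31.5% lower at 260 than at 110 dpc. The mean level of the 11 muscle fibre markers was 6.39 to 7.19 at 110 dpc and 8.65 to 8.95 at 260 dpc, with 9 genes higher and 1 lower and a median difference of 2.57. The creatine kinase *CKM* rose by 3.11 and the calcium pump *ATP2A1* by 2.99, and the myogenic regulator *MYOG* fell by 0.78. The mean of 8 fibroblast markers was 6.52 to 7.52 at 110 dpc and 5.44 to 6.09 at 260 dpc, with 6 lower and 0 higher. *POSTN* fell by 4.37 and *LUM* by 1.44. Of 7 tested mural cell markers, which label pericytes and vessel smooth muscle, 1 was higher and 4 lower. The mean of all 9 measured mural probes, those under the filter included, went the other way. It was 2.545 to 2.878 at 110 dpc and 2.997 to 3.674 at 260 dpc. *MYH11*, a myosin of mature smooth muscle, rose by 2.73 (adjusted p = 5.8e-06), while *ACTA2* fell by 1.63 and *MCAM* by 1.23. Of 4 erythroid markers tested, 3 were lower at 260 than at 110 dpc, with *HBG* falling by 2.68 and *HBA* by 1.64. The mean of all 10 erythroid probes was 0.22 to 0.62 at 110 dpc and −0.67 to 0.33 at 260 dpc. The part of these shifts in the values of the 10 vessel genes was not tested.

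Between the breeds, none of the 8 tested genes passed at any stage in limma. At 110 dpc 0 of 8 passed, against 0.24% of all tested genes, and 0 of the 10 lead probes had an unadjusted p under 0.05. At 180 dpc 0 of 8 passed, against 0.0252%, and 0 of 10 had an unadjusted p under 0.05. At 210 dpc 0 of 8 passed, against 0%, and 3 of 10 had an unadjusted p under 0.05 (*VWF*, *FLT1* and *ANGPT2*, all lower in BA). Of all 20132 tested probes, 2775, 1242, 1054 and 1075 had an unadjusted p under 0.05 at 110, 180, 210 and 260 dpc. At 260 dpc 0 of 8 passed, against 0%, and 4 of 10 had an unadjusted p under 0.05. These 4 were *PECAM1* at 0.56 (95% interval 0.16 to 0.97), *CDH5* at 0.78 (0.18 to 1.37) and *ANGPT1* at 0.36 (0.012 to 0.70), higher in BA, and *VWF* at −0.54 (−0.91 to −0.17). At 260 dpc both BA arrays were above all 3 CH arrays for the lead probes of *PECAM1*, *CDH5* and *ANGPT1*, with adjusted p of 0.69, 0.77 and 0.92. For the lead probe of *ANGPT1* the order was the reverse at 110 dpc, where every BA array was below both CH arrays. Its further probes overlapped between the breeds at 260 dpc. The second *PECAM1* probe had group means of 4.04 in BA and 3.78 in CH at 260 dpc, and the second *CDH5* probe 1.54 and 1.27. For how many of all genes the breeds did not overlap at a stage was not counted, here or below. Both BA foetuses at 260 dpc were female and 2 of the 3 CH foetuses were male. On simulated data for 210 dpc, with 3 arrays of each breed, a shift of 1 on the log2 scale was called for 83% of shifted probes, all of a mean level above 2. The other stages, with 2 against 3 arrays, were not simulated.

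**Figure D4:**
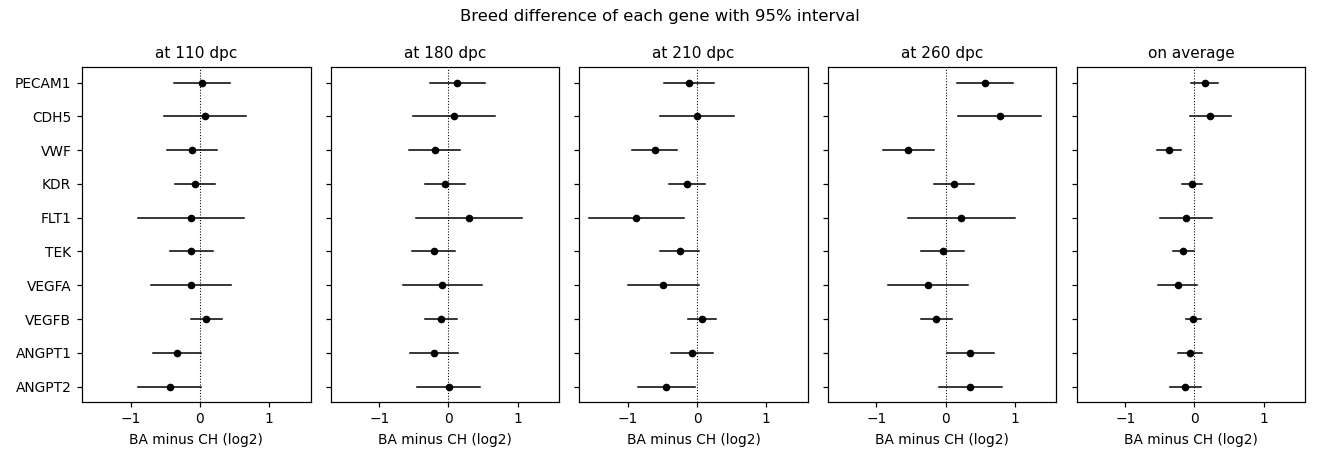
Log2 difference of BA minus CH (horizontal axes) for the lead probe of each gene (vertical axis) at 110, 180, 210 and 260 dpc and on average over the stages, with points for the estimates and lines for unadjusted 95% intervals. *VWF* lies below 0 in each panel, at −0.37 on average, and no tested gene of the 8 passed after adjustment.

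On average over the stages 0 of 8 passed, against 0.404% of all genes, and 2 of the 10 lead probes, *VWF* and *TEK*, had an unadjusted p under 0.05. Of all 20132 tested probes, 2512 had such a p. The average difference of *VWF* was −0.37 (SE 0.08, 95% interval −0.54 to −0.19, adjusted p = 0.075). Its mean was lower in BA at 4 of 4 stages, by 0.11 at 110 dpc, 0.20 at 180 dpc, 0.61 at 210 dpc and 0.54 at 260 dpc. The groups did not overlap at 210 and 260 dpc. In the two-sided exact permutation test, in which breeds are reassigned within stages in 20000 ways, p was 0.0016 for *VWF*. The second bright probe (A_73_P138521) had 1.46 to 1.50 in BA and 1.87 to 2.03 in CH at 180 dpc, and 1.87 to 2.05 in BA and 2.32 to 2.57 in CH at 260 dpc. It gave an average of −0.38 (SE 0.07) that passed in limma (adjusted p = 0.026), with no overlap at 3 of 4 stages. The third (A_73_P450736) gave −0.34 (adjusted p = 0.09). With the mean of the tested *VWF* probes, with normexp background correction, with sex in the model or with sires as a random block, the lead call passed, with adjusted p of 0.022, 0.049, 0.028 and 0.035. It did not pass in the other 11 alternatives, where the highest adjusted p was 1 on the authors' table, nor with any 1 of the 21 arrays left out, with adjusted p of 0.059 to 0.18. Over all tested probes the fit with sires called 209, against 72 in the main fit. Cows were inseminated with sperm of bulls of their own breed, so effects of sire and breed cannot be told apart. Of the 6 within-slide pairs of BA and CH arrays at 1 stage, the 4 at 210 and 260 dpc were lower in BA by 0.23 to 0.84, and those at 110 and 180 dpc differed by 0.015 and 0.11 the other way.

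**Figure D5:**
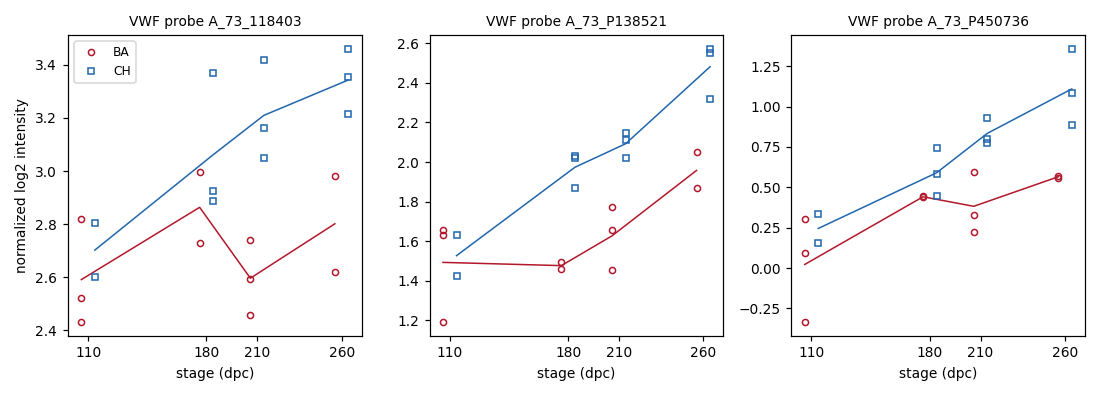
Normalized log2 intensity of the 3 *VWF* probes that were well above background on all 21 arrays (vertical axes, a scale of its own in each panel) against stage in dpc, with 1 point per array, circles for BA, squares for CH, and lines through the group means. The BA arrays lie below the CH arrays at 210 and 260 dpc for each of the 3 probes, and the lead probe on the left did not pass (adjusted p = 0.075 in limma).

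*TEK* differed by −0.16 on average (95% interval −0.31 to −0.0049, adjusted p = 0.39), was lower in BA at 4 of 4 stages, and had a two-sided exact permutation p of 0.028. *VEGFA* was also lower in BA at 4 of 4 stages, at −0.24 on average (−0.52 to 0.042), with an exact permutation p of 0.051, and BA was the lower array in 6 of 6 within-slide pairs. The average difference was 0.15 for *PECAM1* (−0.047 to 0.35), 0.23 for *CDH5* (−0.057 to 0.52), −0.037 for *KDR* (−0.18 to 0.11) and −0.018 for *VEGFB* (−0.13 to 0.091). It was −0.063 for *ANGPT1* (−0.23 to 0.10), −0.13 for *ANGPT2* (−0.35 to 0.093) and −0.12 for *FLT1* (−0.49 to 0.26). These were 10 permutation tests in the same family, and only *VWF* and *TEK* had an unadjusted p under 0.05. All of these values are of lead probes. The second *PECAM1* probe was lower in BA at 110, 180 and 210 dpc, with group means of 3.75, 4.63 and 4.40. Those of CH were 3.98, 4.79 and 4.60, and only at 260 dpc was BA higher. The second *CDH5* probe was lower in BA at 110 dpc (1.02 against 1.41) and higher at the later stages. No gene of the other lists that were tested differed between the breeds on average past the threshold.

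The change from 110 to 260 dpc was also taken within each breed. In BA 3 of 8 were higher (*PECAM1*, *TEK* and *ANGPT1*) and 2 lower (*KDR* and *ANGPT2*), against 54.1% of all genes called in either direction. In CH 3 were higher (*VWF*, *TEK* and *VEGFB*) and 2 lower (*KDR* and *ANGPT2*), against 53.6%. *TEK* rose by 0.58 in BA and 0.51 in CH, *KDR* was at −0.54 and −0.73, *ANGPT2* at −0.56 and −1.35, and *VEGFA* rose by 2.40 and 2.53. In BA 3 of the 5 calls were lost without single arrays. Without BA replicate 2 at 260 dpc, *KDR* was at −0.37 (adjusted p = 0.094) and *PECAM1* at 0.62 (adjusted p = 0.054), and *ANGPT2* had an adjusted p of 0.3 without replicate 1 at 260 dpc, 0.15 without replicate 3 at 110 dpc and 0.062 without replicate 2 at 110 dpc. The call of *ANGPT2* in BA was also lost on other scales, at −0.34 (adjusted p = 0.12) with normexp and −0.47 (adjusted p = 0.063) with quantile normalization. Its probe A_73_111353, well above background on all 21 arrays, was nearly level in BA, with means of −0.43 at 110 dpc and −0.50 at 260 dpc. Its probe A_73_P100931 went from −1.37 to −1.87 there. In CH *TEK* was at 0.37 (adjusted p = 0.12) without replicate 1 at 110 dpc, and *VWF* at 0.54 (adjusted p = 0.064) without replicate 2 at 110 dpc. *CDH5*, at −0.67 in CH (adjusted p = 0.055), passed without each of 6 arrays in turn, among them CH replicate 2 at 260 dpc (−0.90, adjusted p = 0.017).

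The breed difference in that change was tested as an interaction. None of the 8 passed, against 0% of all genes, and 2 of the 10 lead probes had an unadjusted p under 0.05. Of all 20132 tested probes, 1427 had such a p. *ANGPT1* changed by 0.86 in BA and 0.17 in CH, an interaction of 0.68 (SE 0.23, 95% interval 0.20 to 1.17, adjusted p = 0.64). The interaction for *ANGPT2* was 0.79 (0.14 to 1.43, adjusted p = 0.66). On simulated data this test called 49.5% of the probes shifted by 1 and 88.4% of those shifted by 2. Many probes were shifted at once, and all of them had a mean level above 2. For such probes smaller interactions were mostly not detectable at this number of arrays. The rates were not obtained for dimmer lead probes such as that of *ANGPT2*, with a mean of 1.15.

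The genes outside the lists whose pattern was most like the vessel genes were found by Pearson's r over the 21 arrays. The pattern was the mean of the standardized lead probes of *PECAM1*, *CDH5*, *VWF*, *KDR*, *FLT1* and *TEK*, and r is given as a description with no test, since the arrays share groups and scaling. The first 5 were *CHST7* (0.86), *LBH* (0.86), *PCDH12* (0.84), *TSPAN15* (0.84) and *AASS* (0.84). With group means removed, r was 0.35, 0.60, 0.65, 0.55 and 0.64. *PCDH12* codes for an endothelial protocadherin and *CHST7* for a chondroitin sulfotransferase. The lead probes averaged for the pattern did not all run together. Between pairs of them r went from −0.17 (*CDH5* with *VWF*) to 0.80 (*CDH5* with *KDR*).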

How the data were processed

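RNA of 21 foetal muscles was hybridized to single-colour bovine arrays with 45220 spots. The authors made the intensity values with Agilent Feature Extraction 10.7, applying a multiplicative detrend but subtracting no background. Their methods also name a normalization between arrays. Their deposited value table is in log2, and 649571 of its 649670 values lay no more than 0.01 from the logged processed intensity of the same array. Its array medians ran from 8.04 to 8.82, so the deposited values carry no such scaling.

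Control spots and 258 outlier spot values were left out and spots of a probe were averaged. Log2 intensities were reduced by the array's 75th percentile (525 to 1174 intensity units), and 2.69 was added. RefSeq accessions named the probes (ARS-UCD2.0). Positions are left out because the array design used an older assembly. Tests used limma 3.58.1 in R 4.3.3 (residual degrees of freedom 13, prior 3.79), with Benjamini-Hochberg adjustment. Precision is limited by the 2 or 3 arrays of a group. Foetuses are separate animals.

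The 10 genes and all lists were chosen with earlier results of these data known. Named genes are the 10, up to 2 genes per direction of each list with the lowest p from 110 to 260 dpc, and the 5 most alike; exceptions are marked. Of the listed genes, those without a probe or under the filter were not counted.

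On simulated data, the comparison of 260 with 110 dpc recovered 93.5% of probes shifted by 1 and 99.1% of those shifted by 2. The average breed comparison recovered 98.2% and 100%. In each simulation many probes were shifted at once, all with a mean level above 2. The lead probes of *CDH5*, *FLT1*, *VEGFA* and *ANGPT2* lie below that level, so these rates were not obtained for them.

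Alternatives were normexp with offset 50, quantile normalization, median scaling, the authors' table, no filter, a filter on detection, the mean of a gene's probes, sex as a covariate, females alone, slide, scan day, replicate number or sire as blocks, trended and robust variance, only the groups compared, and each array left out. The fit of 1 scan day was chosen after seeing the data. Promoter and protein sequences were not used here.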

Additional observations from a re-analysis of the deposited data

How the results depend on the processing

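From 110 to 260 dpc 7 of the 8 tested genes were called, and the count was 7 without any 1 of the arrays. It was 3 with the authors' unscaled table and 4 on the scan day that holds all groups. That fit, chosen after seeing the data, has 12 arrays and 4 residual degrees of freedom. From 110 to 180 dpc the count of 4 was 0 with the authors' table, 2 on that scan day and 3 to 5 with single arrays left out. From 210 to 260 dpc the count of 3 was 6 with the mean of a gene's tested probes, and 2 to 4 with single arrays left out. From 180 to 210 dpc the count of 0 was 1 with the arrays of those stages alone. In BA the count of 5 was 2 with the authors' table, 3 with slide as a block, 2 on the scan day and 3 to 5 with single arrays left out. In CH it was 3 with the authors' table and 4 to 6 with single arrays left out. The average breed count of 0 was 1 (*VWF*) with normexp, with the mean of a gene's probes, with sex as a covariate and with sires as a random block. The other counts stayed at 0 throughout, and single arrays left out gave 0 to 0 for every breed comparison.

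Some signs turned. From 110 to 260 dpc *VEGFB* was at −0.045 with quantile normalization and −0.11 with the authors' table, and *CDH5* at 0.072 with slide as a block. For the average breed difference, *VEGFB* was at 0.025 with quantile normalization, 0.036 with the authors' table, 0.023 with slide as a block and, over the fits without 1 array, −0.036 to 0.0016 (the latter without CH replicate 2 at 260 dpc). *KDR* was at 0.017 with the authors' table, 0.011 on the scan day and, over the fits without 1 array, −0.079 to 0.0039 (the latter without BA replicate 2 at 260 dpc). The authors' table leaves out the scaling between arrays; the cause of the other turns was not tested. On it 23.9% of the probes called from 110 to 260 dpc were higher, against 52% with the main scale and 60.2% with median scaling. Over all tested probes the average breed comparison called 72, and from 2 on the scan day to 209 with sires as a block.

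With the replicate number as a block the count from 110 to 260 dpc was 7 and the average breed count 0, and over all probes the latter was 45; *FLT1* from 110 to 260 dpc had an adjusted p of 0.059. The numbers do not pair the foetuses: 66 pairs of group-centred arrays with the same number had a median correlation of 0.027 and a lowest of −0.259, and 126 other pairs −0.0031. The number of arrays and the dim signal of *FLT1*, not well above background on 2 arrays, limit these results.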

Other observations

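Lymphatic vessels are lined by endothelium of their own. Of 3 tested lymphatic markers, the chemokine *CCL21* rose by 2.67 between 110 and 260 dpc (SE 0.37, adjusted p = 6.5e-06), with stage means of −0.48, 2.48, 3.00 and 2.30. *LYVE1*, which some macrophages also express, fell by 0.85 (adjusted p = 0.009). Of 7 angiogenesis inhibitors, 2 rose and 2 fell, against 1 and 4 on the authors' unscaled table. On the main scale 33.8% of all tested genes rose and 31.5% fell. *TIMP3*, an inhibitor of matrix proteases that also blocks VEGFA binding to KDR, rose by 0.95 (adjusted p = 9e-05) and *CXCL14* by 1.09 (adjusted p = 0.0027). *COL18A1*, the source of endostatin, fell by 2.52 (SE 0.10, adjusted p = 1.6e-12) and *THBS1* by 0.94 (adjusted p = 0.02).

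Cells that share markers with endothelium gave these values, beside shares of 33.8% higher and 31.5% lower among all tested genes. Of 10 tested leukocyte markers, 2 were higher and 6 lower at 260 than at 110 dpc (0 and 6 on the unscaled table), with *CD68* at 0.83 and *LYZ* at 0.30, and *CSF1R* and *SPI1* at −1.42 and −1.40. The platelet integrin *ITGA2B*, the 1 tested of 8 platelet and megakaryocyte genes, rose by 0.41 (adjusted p = 0.025), but was at 0.017 on the unscaled table. The lipase *LPL*, the 1 tested adipocyte marker, rose by 3.97 (SE 0.18, adjusted p = 6.3e-12); muscle fibres express it too.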
